A study of Mus musculus with 16 samples.

Results

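RNA-seq of bone-marrow-derived macrophages (BMDM), macrophages grown in culture from mouse bone marrow, was searched for the genes whose RNA was lowest relative to untreated cells after 1 hr of LPS, a cell wall component of Gram-negative bacteria. The 150 genes were selected on measured values. In each of 3 mice with an untreated and an LPS library of the same animal (WT mouse B, and mice A and B of the NELF-B KO), the LPS minus untreated difference in log2 CPM (log2 of read counts scaled to a common library size) was taken, and a gene's score was the largest, that is the least negative, of the 3 differences. Genes with a mean untreated level of 2 log2 CPM or more were ranked by score after symbols starting with Zfp or Slc were left out, and the lowest 150 of the 8960 genes that could be taken were kept, out of 9614 genes in the table. What chose these genes, their LPS response in those 3 mice, is given as a description and was not tested.

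The cells came from male C57BL/6 mice aged 8 weeks. All mice carried LysM-Cre, a recombinase expressed from a myeloid gene. WT mice were LysM-Cre:NELF-B wt/wt, and NELF-B KO mice were LysM-Cre:NELF-B fl/fl, in which a floxed part of the Nelfb gene is deleted in cells with Cre. Cells of 3 mice per genotype, called A, B and C here, were left untreated (2 libraries per genotype, none from the C mice), given LPS at 10 ng/ml for 1 hr (3 per genotype), or given the same LPS together with dexamethasone (Dex), a synthetic glucocorticoid, at 100 nM for 1 hr (3 per genotype). NELF-B is a subunit of NELF, the complex that holds RNA polymerase II paused shortly after it starts a gene.

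Nelfb was between 5.59 and 6.21 log2 CPM in the 8 WT libraries and between 3.27 and 4.38 in the 8 KO libraries, so every KO library was below every WT library. It was least reduced in KO mouse B, at 4.38 untreated, 4.21 with LPS and 4.22 with LPS + Dex. In the other KO libraries it was at 3.27 to 3.53. The libraries held 25000000 to 49700000 recovered reads. Macrophage markers (7 of 8 listed genes in the table) summed to 12.61 to 12.95 log2 CPM untreated, 12.97 to 13.13 with LPS and 13.00 to 13.16 with LPS + Dex. The macrophage sum was higher with LPS in each of the 4 mice with both libraries. Cd79b, the 1 of 4 listed B cell markers in the table, was at 4.14 to 5.31 log2 CPM untreated, 3.8 to 5.13 with LPS and 3.74 to 4.95 with LPS + Dex, and was lower with LPS in each of these 4 mice. The sum of 3 of 4 stromal genes was at 5.07 to 6.20, 5.57 to 6.53 and 6.11 to 6.84, and was higher with LPS in each. S100a8, of 8 neutrophil markers, was at 2.48 to 4.76, 2.45 to 5.18 and 2.97 to 5.38, and Cd4, of 5 T cell markers, at 2.74 to 5.86, 2.53 to 5.85 and 2.37 to 5.89. The part of these cells in the results was not tested. The untreated library of WT mouse A stood apart: its correlation with the other libraries across genes was 0.83 to 0.909, against 0.924 to 0.993 among the other 15. The rule did not use that library, and results that rest on it are named as such.

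Macrophages exposed to LPS switch on cytokines, chemokines and immediate-early genes within minutes through NF-kB and MAP kinases, and this induction is the part of the response that is usually followed. A message can fall within 1 hr only if the RNA already present decays quickly, whether or not less of it is made. Many short-lived messages encode regulators: transcription factors, inhibitors of signalling and cell cycle or cell death proteins. Glucocorticoids act through the glucocorticoid receptor, which raises some genes directly, Tsc22d3 (GILZ, an anti-inflammatory mediator) being the best known.

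The scores ran from -1.70 to -0.47, with a median of -0.61, and 24 of the 150 genes were lower by more than 1 log2 unit in all 3 mice. The median difference of the 150 genes was -0.74 in WT mouse B, -0.67 in KO mouse A and -0.86 in KO mouse B, while the median over all 8960 genes was within 0.01 of 0 in each. The cut-off fell in a continuum. The last genes inside were Cdk20, 5730409E04Rik, Rbm43, Repin1 and Gtpbp8, with scores of -0.476 to -0.469, and the first outside were Ttc30b, Fam58b, Patz1, Sesn1 and Zscan29, with scores of -0.468 to -0.465. The members were of modest abundance, with untreated levels of 2.01 to 7.99 and a median of 3.68 log2 CPM, against a median of 5.13 over the 8960 genes. Per kilobase of transcript, the untreated level of the members ran from -1.24 log2 CPM per kb for Mars2, a mitochondrial methionyl-tRNA synthetase, to 7.20 for Rsrp1, an arginine- and serine-rich protein, with a median of 2.18.

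The gene with the lowest score was Frat2, which binds the kinase GSK-3 and favours Wnt signalling. Frat2 stood at 1.67 log2 CPM in untreated WT mouse B, 2.29 and 2.34 in KO mice A and B and 2.63 in WT mouse A. In the 6 LPS libraries it stood between -0.03 and 0.79, so the treated and untreated libraries did not overlap. Frat2 is a gene of 1 exon on chromosome 19 (41845972 to 41848132, minus strand, GRCm38). Id1, a helix-loop-helix protein without a DNA-binding region that blocks bHLH transcription factors, was at 2.66 in untreated WT mouse B, 2.67 and 3.52 in KO mice A and B and 3.77 in WT mouse A. With LPS, Id1 was at 0.32, 0.17 and 1.43 in mice A, B and C of the WT and at 1.05, 0.86 and 1.67 in mice A, B and C of the KO. The highest LPS library was again below the lowest untreated library.

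Txnip, the thioredoxin-interacting protein that restrains glucose uptake, was at 6.54 log2 CPM in untreated WT mouse B and at 6.25 and 6.20 in KO mice A and B. In untreated WT mouse A, the library that stood apart, it was at 4.58. With LPS it was at 4.0, 4.47 and 4.29 in mice A, B and C of the WT and at 4.19, 4.75 and 4.46 in mice A, B and C of the KO. Txnip thus did not overlap between treatments among the libraries the rule used, but 1 LPS library, that of KO mouse B, was above untreated WT mouse A. Txnip is an alpha-arrestin, and its relatives Arrdc3 and Arrdc2, adaptors for receptor internalization and ubiquitylation, were members too, with scores of -0.81 and -0.72. The other measured relatives were not lower in the 3 mice of the rule: the differences of Arrdc1 were between 0.00 and 0.01, and those of Arrdc4 between 0.78 and 1.24. In WT mouse A, whose untreated library stood apart, the differences were -0.57 for Txnip, -0.40 for Arrdc3, -2.29 for Arrdc2, -0.91 for Arrdc1 and 0.80 for Arrdc4.

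Tsc22d3 was lower with LPS alone, in cells given no Dex. It was at 5.75 and 5.28 log2 CPM in untreated WT mice A and B and at 5.93 and 5.68 in untreated KO mice A and B. With LPS it was at 3.76, 3.92 and 4.05 in mice A, B and C of the WT and at 4.54, 4.33 and 4.35 in mice A, B and C of the KO. All LPS libraries were below all untreated libraries. Cnr2, the CB2 cannabinoid receptor of leukocytes, was at 4.66 and 4.44 in untreated WT mice A and B and at 4.91 and 4.49 in KO mice A and B, against 3.22 to 3.81 in the 6 LPS libraries. Gadd45g, a stress-induced protein that activates a MAP kinase kinase kinase, was at 5.51 and 3.74 in untreated WT mice A and B and at 3.88 and 4.41 in KO mice A and B. With LPS it was at 2.39, 2.66 and 2.79 in mice A, B and C of the WT and at 2.63, 2.81 and 3.47 in the KO mice, again without overlap. On GRCm38, Txnip has 8 coding exons on chromosome 3 (96557957 to 96561883, plus strand), Gadd45g has 4 on chromosome 13 (51846678 to 51848468, plus strand) and Tsc22d3 has 3 on chromosome X (140539528 to 140600659, minus strand).

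**Figure D1:**
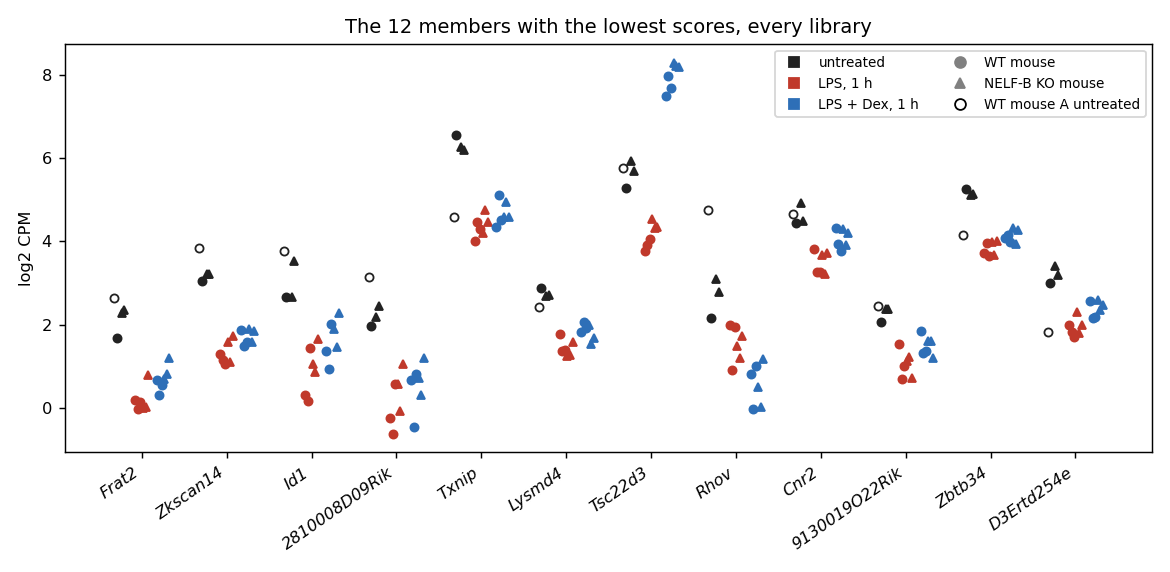
Level (log2 CPM, y axis) of the 12 members with the lowest scores (x axis) in each of the 16 libraries; black, red and blue mark untreated, LPS and LPS + Dex, circles WT mice and triangles KO mice, and the open circle is the untreated library of WT mouse A. Most untreated points lie above the LPS points of the same gene, the open circle departs from the other untreated points for Txnip, Rhov, Zbtb34 and D3Ertd254e, and Tsc22d3 with LPS + Dex lies above its untreated points.

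The remaining genes among the lowest 20 scores were Zkscan14, 2810008D09Rik, Lysmd4, Rhov, 9130019O22Rik, Zbtb34, D3Ertd254e, Alkbh4, AI467606, Angptl4, Bmf, Ccnj, Armc7 and Zscan20, with scores of -1.64 to -1.01. Rhov is an atypical small GTPase, Angptl4 a secreted inhibitor of lipoprotein lipase, Bmf a BH3-only protein that favours apoptosis, Ccnj a cyclin, and Alkbh4 an iron-dependent demethylase. 2810008D09Rik is annotated as a long non-coding RNA. Zkscan14, Zbtb34 and Zscan20 are zinc finger proteins of the SCAN and BTB classes. The same-animal difference of Bmf was -1.69 in WT mouse B, -1.06 in KO mouse A and -1.46 in KO mouse B, and that of Angptl4 was -1.49, -1.07 and -1.54.

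Among the listed families, zinc finger genes with symbols starting Zbtb, Zkscan, Zscan, Zc3h, Zcchc, Zmym or Zmynd took the largest share. Of 69 such genes that the rule could take, 12 were members (17.4%), against 1.67% of all 8960 genes. Other zinc finger members, such as Rbak, Repin1, Sall2 and Klf11, lie outside this list. So do A530054K11Rik and Gm4944, annotated as Zfp729a and Zfp994. The 12 listed members were Zkscan14, Zbtb34, Zscan20, Zscan12, Zbtb14, Zkscan8, Zbtb48, Zscan22, Zbtb39, Zbtb45, Zbtb1 and Zkscan1. Their values differed between animals, as for Zkscan8, whose difference was -0.97 in WT mouse B, -0.67 in KO mouse A and -1.22 in KO mouse B. Had Zfp symbols been kept, 46 of the 181 eligible Zfp genes (25.4%) would have been among the lowest 150, and 0 of the 165 Slc genes, which encode solute carriers. The median score of the 69 listed zinc finger genes was 0.02 and that of all genes 0.07, so most of the family was not lowered in all 3 mice. Uniquely mapped reads were counted, so the level of a gene with a near-identical copy, as some zinc finger genes have, is uncertain.

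Of 32 genes known to rise when growth factors are withdrawn and FOXO factors are active, 5 were members (15.6%): Txnip, Gadd45g, Bmf, Arrdc3 and Arrdc2. The share of all 8960 genes was 1.67%. The median score of these 32 genes was 0.02, so many of them were not lowered in all 3 mice. Of 46 repressor and quiescence factors of the BCL6, FOX and KLF kinds, 3 were members (6.52%): Tsc22d3, Klf11, a KLF repressor, and Smad7, which inhibits TGF-beta receptors. Of 34 homeobox, bHLH, ID and MAF regulators, Id1 and Hhex, a homeobox repressor, were members (5.88%). Of 29 genes of the TGF-beta and BMP pathway, Id1 and Smad7 were (6.9%). Of 51 G-protein-coupled receptors, 3 were members (5.88%): Cnr2, S1pr2, a receptor for sphingosine 1-phosphate, and Mrgpre, an orphan receptor. The median scores of the lists after the FOXO list were 0.162, 0.0, 0.14 and 0.161, in this order. The differences of S1pr2 were -0.56, -0.49 and -0.64 in WT mouse B, KO mouse A and KO mouse B.

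Other groups held smaller shares than the zinc finger and FOXO lists. Ubiquitin ligase subunits and ubiquitin proteases had 8 members among 229 (3.49%, against 1.67% of all genes), namely Klhl42, Fbxl12, Trim59, Fbxo5, Klhl21, Trim16, Asb8 and Usp42, the last a protease that removes ubiquitin. Small GTPase and G-protein regulators had 3 among 106 (2.83%): Rhov, Arhgef4 and Rhoh. Chromatin and transcription cofactors had 1 among 146, Phf23, and cilium, centrosome and tetratricopeptide proteins 1 among 121, Ccdc117. Toll-like receptors and other sensors (30 genes), cytokine and growth factor receptors (36), MAP kinase and receptor tyrosine kinase feedback regulators (37) and circadian output genes (14) had 0 members. The lists were drawn up with earlier results of these data known, so their shares are descriptions.

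The members were short genes with few exons, a property that the rule did not use. In the GENCODE annotation of GRCm38, 149 of the 150 were found. Their median number of coding exons was 3, against 9 for the other genes that could be taken. A single coding exon was present in 34 of the 146 members with a coding sequence (23.3%), against 3.61% of the others, and 3 exons or fewer in 45.6% against 9.61%. The median span of the gene was 9460 bp against 25270 bp, and 53.7% against 22.0% spanned under 10 kb. The members' messages were not short: the median transcript was 3145 nt, against 3030 nt. The share of genes that were members fell with the number of coding exons, from 9.74% of genes with 1 coding exon to 4.63% with 2 to 4, 1.32% with 5 to 9 and 0.257% with 10 or more.

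Members with a single coding exon came from unrelated functions. They included Frat2, Cnr2, S1pr2, Mrgpre, Sertad3, a SERTA-domain transcription regulator, Cebpa, a transcription factor of myeloid and fat cells, Rhoh, the mitochondrial tRNA synthetases Pars2 and Mars2, and the tRNA-modifying enzymes Trmt12, Lcmt2 and Mocs3. The other single-coding-exon genes, those that were not members, had a median difference of -0.01 in WT mouse B, -0.05 in KO mouse A and -0.13 in KO mouse B. The rule used these differences, so the contrast of these genes with the members was set by it. The 75 members with the lowest scores and the next 75 did not differ in the share with a single coding exon, at 23.3% each. They did differ in the share with 3 exons or fewer, at 55.4% against 36.0%, and in the median number of exons, at 3 against 4.

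**Figure D2:**
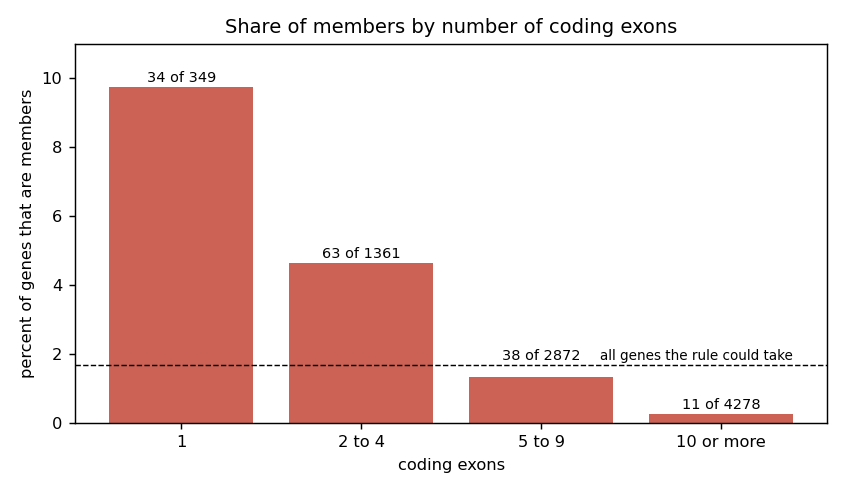
Percent of genes that were among the 150 members (bars, y axis from 0) by the number of coding exons (x axis), with the number of members and of all genes in the class above each bar; the dashed line is the 1.67% of all genes the rule could take. The bars fall from 9.74% at 1 coding exon to 0.257% at 10 or more.

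Features often linked to unstable messages were counted as well. The 3′ UTR was longer in members, with a median of 1480 nt against 1036 nt, but the AU-rich letters TATTTAT were found in the 3′ UTR of 31 of 145 members (21.4%), against 28.6% of the others. An exon overlapping another annotated gene was present in 28.9% of members and 30.7% of the others. Whether the counting used strand is not given in the sources used here, so reads of such overlapping genes cannot be told apart.

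Promoter sequences were taken from RefSeq (GRCm38.p6), where 122 of the 150 members were matched. Shown here are the 250 bases before the start site of Frat2 and Txnip, among the lowest scores, and of Gadd45g and Abhd15, which Dex moved in opposite directions. Capitals mark the CCAAT box, the TATA box (TATAAA) and the GC box (GGGCGG) on either strand, and runs that overlap are joined. The regions are chr19:41848133-41848382 (minus strand), chr3:96557707-96557956, chr13:51846425-51846674 and chr11:77514867-77515116 (plus strand), in this order.
Frat2: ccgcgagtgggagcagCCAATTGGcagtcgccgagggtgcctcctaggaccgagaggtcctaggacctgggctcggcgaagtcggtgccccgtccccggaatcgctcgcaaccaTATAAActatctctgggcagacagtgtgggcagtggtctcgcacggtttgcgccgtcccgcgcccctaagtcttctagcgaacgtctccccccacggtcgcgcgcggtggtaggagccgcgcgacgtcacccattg
Txnip: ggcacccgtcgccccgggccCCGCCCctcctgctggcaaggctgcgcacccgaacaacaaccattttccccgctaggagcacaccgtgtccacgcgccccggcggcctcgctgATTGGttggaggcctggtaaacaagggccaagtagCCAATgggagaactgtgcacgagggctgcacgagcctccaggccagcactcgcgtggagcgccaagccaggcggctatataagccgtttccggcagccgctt
Gadd45g: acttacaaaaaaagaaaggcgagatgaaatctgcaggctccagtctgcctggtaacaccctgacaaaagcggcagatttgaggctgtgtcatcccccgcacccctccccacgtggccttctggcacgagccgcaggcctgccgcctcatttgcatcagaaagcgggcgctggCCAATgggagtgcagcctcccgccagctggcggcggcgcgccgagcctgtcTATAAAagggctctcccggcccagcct
Abhd15: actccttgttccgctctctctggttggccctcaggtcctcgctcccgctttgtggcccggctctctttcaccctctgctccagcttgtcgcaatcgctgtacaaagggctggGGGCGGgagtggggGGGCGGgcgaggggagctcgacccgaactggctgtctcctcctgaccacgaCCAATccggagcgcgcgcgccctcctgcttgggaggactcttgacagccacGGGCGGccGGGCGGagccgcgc

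Frat2 and Gadd45g hold the letters TATAAA, with the first base at -136 and -27 from the start site. The letters TATATAA near the end of the Txnip sequence were not part of the search. Txnip and Abhd15 hold a GC box, and each of these promoters holds a CCAAT box. Over the members, the window of 250 bases before to 50 after the start held CCAAT in 45.1% of 122 promoters, against 38.4% of 7185 other promoters. TATAAA was in 8.20% against 6.33%, and GGGCGG in 63.1% against 67.6%. The AP-1 letters TGANTCA were in 8.20% against 4.66%, and the glucocorticoid receptor letters AGAACA in 15.6% against 11.5%. The PU.1 letters GAGGAAG were in 8.20% against 14.2%, the NRF1 letters GCGCATGC in 2.46% against 6.37%, the kB letters GGGNNTTCC in 8.20% against 7.77%, and the serum response letters CCATATT in 0 members against 1.60%. Of the other motifs, the CRE (TGACGTCA) was in 4.10% of member promoters against 3.45%, the E-box (CACGTG) in 12.3% against 11.2%, and the ETS letters GGAAGT in 35.2% against 31.3%. The YY1 letters AAGATGG were in 6.56% against 8.30%, the forkhead letters GTAAACA in 4.10% against 2.57%, and the interferon response element in 4.10% against 3.30%. All 15 motifs were searched on both strands, and a match of letters says nothing of binding.

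The pair of WT mouse A was not used by the rule, and there 129 of the 150 members were lower with LPS (86.0%), against 48.2% of all 8960 genes. The median difference of the members was -0.82, against 0.04. Of the members, 66.7% were lower by over 1.5-fold, against 24.8% of all genes. These values rest on the untreated library that stood apart. In that mouse the difference followed transcript length across genes (Spearman's rank correlation 0.622 over 8921 genes, which share the 2 libraries), whereas the correlation was 0.017, 0.24 and 0.11 in the 3 mice of the rule. Within classes of transcript length the members were lower more often than the others: 98.1% against 79.8% in the shortest tercile, 92.0% against 46.0% in the middle tercile and 66.0% against 17% in the longest tercile. With 1 coding exon it was 88.2% of 34 members against 44.4% of 315 others, and with 2 to 4 it was 85.7% of 63 against 65.2% of 1298. With 5 to 9 it was 89.5% of 38 against 58.9% of 2834, and with 10 or more 81.8% of 11 against 34.8% of 4267. The difference in WT mouse A also followed GC content (correlation -0.439) and coding exons (0.339). In the mice of the rule these were -0.129 to -0.124 and 0.102 to 0.259. Classes of GC content were not made, and the part of these features in the members' difference in WT mouse A was not tested.

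Members that were not lower in WT mouse A included D3Ertd254e, Klhl42, Zkscan8, Zbtb39 and Usp42, with differences of 0.16, 0.06, 0.39, 0.58 and 0.86. The LPS libraries of WT mice A and C and KO mouse C had no part in the choice either. In 136 of the 150 members (90.7%) these 3 libraries were all below the 3 untreated libraries used by the rule, against 12.4% of all genes that could be taken. The untreated side of this count did choose the members. In bulk RNA a lower level of a gene can come from fewer cells that express it or from less RNA per cell, which cannot be told apart.

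**Figure D3:**
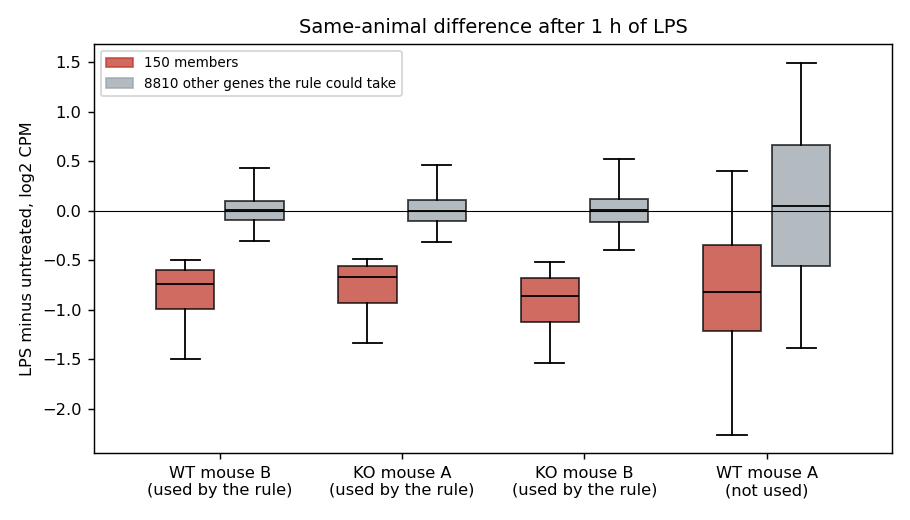
LPS minus untreated difference (log2 CPM, y axis) in each mouse (x axis) for the 150 members (red) and the 8810 other genes (grey); boxes show the quartiles and median, whiskers the 5th and 95th percentile of genes. The members' boxes lie below 0 in the 3 mice that chose them and in WT mouse A, where the other genes spread most.

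Dex together with LPS was compared with LPS alone in the animals whose LPS libraries the rule had not used, WT mice A and C and KO mouse C. Most members were higher with Dex, by a small amount. The median difference of the members was 0.13, 0.11 and 0.06 log2 units in these mice, while the median of all genes was -0.01 in each. Of the members, 71 (47.3%) were higher in all 3 mice, against 16.7% of the 9614 genes, and 20 (13.3%) were lower in all 3, against 21.6%. In WT mouse B and KO mice A and B, whose LPS libraries chose the members, the medians were 0.14, 0.15 and 0.14. Those 3 are given as a description only.

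Past the threshold (limma on all genes with genotype as a covariate, FDR under 0.1 and over 1.3-fold), Dex raised 8 members (5.33%), against 1.06% of all genes tested, and lowered 2 (1.33%), against 0.895%. The raised members were Tsc22d3, Sik1, 1700017B05Rik, Abhd15, Bmf, Ccnj, Gins3 and Cdk20, and the lowered ones Cd300lb and Hhex. With the animal number as a block, 19 members were raised (12.7%, against 2.33% of all genes) and 7 lowered (4.67%, against 2.11%), and these include all 10 of the unblocked fit. The unblocked fit without KO mouse C, which held only WT mice A and C and no term for the animal, called 3 raised and 0 lowered. Without either WT mouse it called 17 or 20 raised and 8 lowered. With the block, the counts without each mouse were 17 to 20 and 8.

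Tsc22d3 rose most, from the 3.76, 4.05 and 4.35 log2 CPM given above for WT mice A and C and KO mouse C under LPS to 7.49, 7.67 and 8.17 with LPS + Dex. The fitted change was 3.72 ± 0.10 log2 units (SE, limma, adjusted p = 0.000798). The LPS + Dex level was above the untreated level of the same animal by 1.74 to 2.68 log2 units in all 4 mice with an untreated library. Sik1, a salt-inducible kinase that keeps CREB coactivators out of the nucleus, stood at 4.72 and 5.98 in untreated WT mice A and B and at 5.66 and 5.85 in untreated KO mice A and B. With LPS, Sik1 was at 4.22, 5.04 and 4.01 in mice A, B and C of the WT and at 5.07, 5.03 and 4.88 in the KO mice. With LPS + Dex it was at 6.31, 7.20 and 6.23 in the WT and at 6.90, 7.16 and 6.81 in the KO, above every untreated library. Its fitted change was 2.08 ± 0.09 (SE, limma, adjusted p = 0.00137).

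1700017B05Rik and Abhd15, a protein of the alpha/beta hydrolase family, followed the same course. 1700017B05Rik was at 7.01 to 7.21 log2 CPM in the 4 untreated libraries, at 5.98 to 6.32 in the 6 LPS libraries and at 7.94 to 8.43 in the 6 LPS + Dex libraries, with no overlap between the treatments. Abhd15 was at 3.08 to 3.29 untreated, 1.95 to 2.69 with LPS and 3.82 to 4.49 with LPS + Dex, also without overlap. The fitted Dex changes were 1.99 ± 0.08 and 1.81 ± 0.23 log2 units (SE, limma, adjusted p = 0.000942 and 0.0331). Without KO mouse C, Abhd15 no longer passed the unblocked fit, with a change of 1.66.

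For Bmf, LPS + Dex brought the level back close to that of untreated cells. Bmf was at 3.68 and 4.62 in untreated WT mice A and B and at 4.56 and 4.46 in untreated KO mice A and B. With LPS it was at 2.47, 2.92 and 2.12 in mice A, B and C of the WT and at 3.50, 3.0 and 3.28 in the KO mice. With LPS + Dex it was at 3.85, 4.12 and 3.51 in the WT and at 4.48, 4.15 and 4.39 in the KO. The LPS + Dex level differed from the untreated level of the same animal by -0.50, 0.17, -0.09 and -0.31 in WT mice B and A and KO mice A and B. The fitted Dex change was 1.3 ± 0.15 (SE, limma, adjusted p = 0.0263). Without KO mouse C the change was 1.39 and did not pass the unblocked fit.

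Ccnj was raised by 1.00 ± 0.13, Gins3, a subunit of the GINS helicase complex of DNA replication, by 0.83 ± 0.12, and Cdk20, a cyclin-dependent kinase, by 0.47 ± 0.07 (SE, limma, adjusted p = 0.0393, 0.0484 and 0.0537). Without KO mouse C none of these 3 passed the unblocked fit, with changes of 0.95, 0.79 and 0.49. With the block, further members rose, among them Id1 by 0.75, Arrdc2 by 0.59, D3Ertd254e by 0.52 and Cnr2 by 0.49. These 4 had adjusted p of 0.937, 0.439, 0.412 and 0.768 in limma without the block and of 0.001, 0.000151, 0.00212 and 3.14e-05 with it. Id1 was higher with Dex by 1.06, 0.58 and 0.62 in WT mouse A, WT mouse C and KO mouse C.

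A smaller group was lowered by LPS and lower again with Dex. Cd300lb, an activating receptor of myeloid cells, was at 6.92 and 7.53 log2 CPM in untreated WT mice A and B and at 7.73 and 7.53 in untreated KO mice A and B. It was at 6.26 to 6.89 in the 6 LPS libraries and at 5.51 to 6.08 in the 6 LPS + Dex libraries, and the treatments did not overlap. Hhex was at 4.67 to 4.86 untreated, 3.61 to 4.13 with LPS and 2.84 to 3.52 with LPS + Dex, again without overlap. The fitted Dex changes were -0.65 ± 0.10 and -0.48 ± 0.09 (SE, limma, adjusted p = 0.0584 and 0.0951). Without KO mouse C neither passed the unblocked fit, with changes of -0.54 and -0.42. With the block, Rhov fell by 0.89, Gadd45g by 0.74, Sertad3 by 0.57, Klf11 by 0.51 and Angptl4 by 0.50. Without the block their adjusted p in limma were 0.114, 0.167, 0.424, 0.159 and 1. Rhov, Gadd45g and Sertad3 stood at -3.93 to -1.70 log2 units from the untreated level of the same animal with LPS + Dex.

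In WT mouse B and KO mice A and B, 142, 143 and 142 of the 150 members were lower with LPS + Dex than untreated. Of the 8960 genes that could be taken, 48.5%, 52.7% and 51.0% were lower in these mice. In WT mouse A, 119 members (79.3%) were lower, against 48.5% of all genes in that animal. In 5 members the LPS + Dex level was above the untreated level in all 3 mice of the rule. The share of all genes above it in all 3 was not counted. These comparisons share their untreated libraries with the rule and were not tested.

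**Figure D4:**
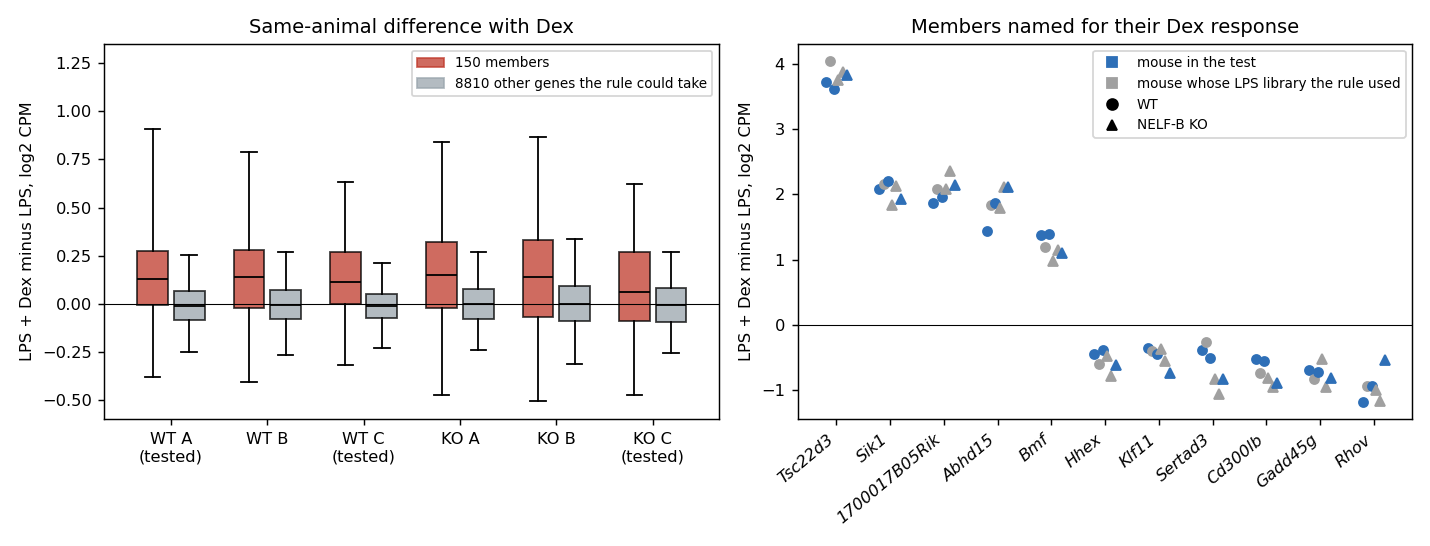
Left: LPS + Dex minus LPS difference (log2 CPM, y axis) in each mouse (x axis) for the 150 members (red) and the 8810 other genes (grey), with boxes for quartiles and median and whiskers for the 5th and 95th percentile of genes. Right: the same difference for the 11 members named for their Dex response, circles WT and triangles KO, blue for mice in the test and grey for the others; Tsc22d3 lies between 3.62 and 4.04 and the last 6 genes below 0 in every mouse.

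NELF-B KO and WT cells were compared under LPS + Dex, since no LPS + Dex library took part in the choice of the members. No member passed the threshold (limma, FDR under 0.05 and over 1.5-fold): 0 were higher and 0 lower, as were 0.0% of all genes tested in either direction. At an unadjusted p under 0.05 with the same fold, 5 members were higher in the KO (3.33%), against 1.11% of all genes, and 2 lower (1.33%), against 2.64%. The deleted gene itself, Nelfb, did not pass this fit either, with a difference of -2.0 ± 0.23 (SE, limma, adjusted p = 0.0889), so a count of 0 says little about the members. It passed with the mouse letters as a block (adjusted p = 0.0328) and in a single fit of all 16 libraries (adjusted p = 0.00846). With the letters as a block, 0 members passed in either direction, against 0.364% of all genes higher and 0.135% lower. In the single fit it was 0 again. Without WT mouse B 2 members were called higher, but the share over all genes was not counted there. In that fit Nelfb (limma, adjusted p = 0.0262) ranked 66 by adjusted p, so this count says little about the members.

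The median KO minus WT difference of the members under LPS + Dex was 0.07, against 0.01 over all genes. KO libraries were all above WT libraries in 20 members (13.3%), against 8.93% of all genes, and all below in 10 (6.67%), against 8.83%. Tsc22d3 was at 7.49, 7.96 and 7.67 in mice A, B and C of the WT and at 8.29, 8.20 and 8.17 in mice A, B and C of the KO. It was thus higher in all 3 KO libraries, with a fitted difference of 0.52 ± 0.13 (SE, limma, adjusted p = 0.205). The difference was 0.51 ± 0.17 for Bmf and 0.71 ± 0.24 for Smad7 (SE, limma, adjusted p = 0.325 and 0.324). Fbxo5, which holds back the anaphase-promoting complex, was at 2.5, 2.14 and 3.21 in the WT and at 1.31, 1.67 and 1.45 in the KO, a difference of -1.14 ± 0.30 (SE, limma, adjusted p = 0.217). Rsrp1, named here because it had the smallest p of the members, was at 7.08, 7.04 and 7.48 in the WT and at 8.02, 7.67 and 7.97 in the KO, with a difference of 0.69 ± 0.15 (SE, limma, adjusted p = 0.198).

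The direction of the KO minus WT median was not the same in each pair of mice that share a letter. Under LPS + Dex the median of the members was 0.05 for the A mice, -0.05 for the B mice and 0.14 for the C mice. Under LPS alone it was 0.06, -0.06 and 0.22, and without treatment -0.06 for the A mice, where the WT library is the one that stood apart, and 0.05 for the B mice. The LPS and untreated values were not tested, since those libraries chose the members in unequal numbers per genotype. The LPS fall of the members in WT mouse B, with a median of -0.74, lay between those of the 2 KO mice of the rule. Only genes lower with LPS in WT mouse B and in both of these KO mice became members, so falls in both genotypes were set by the rule. Whether the fall depends on NELF-B was therefore not tested.

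**Figure D5:**
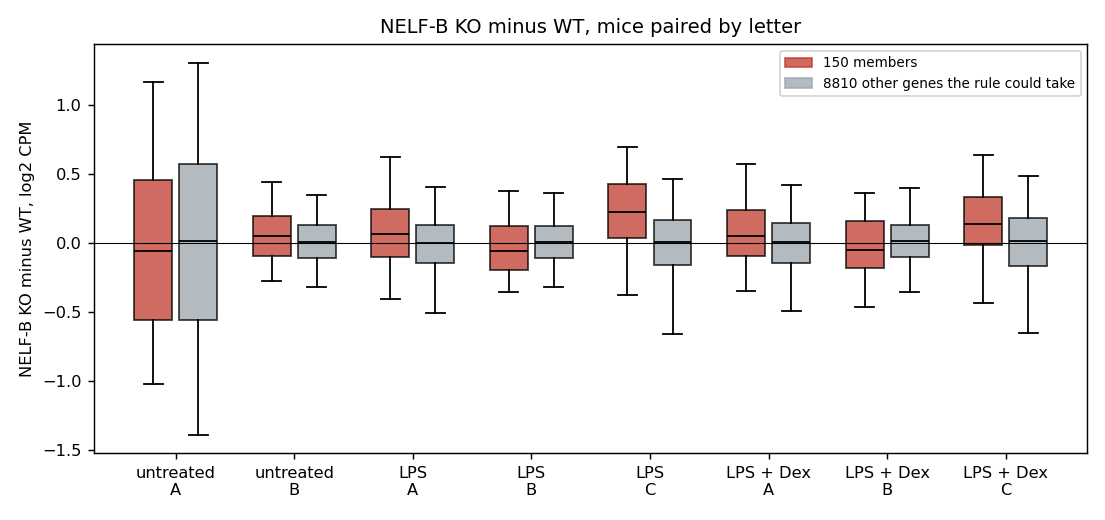
NELF-B KO minus WT difference (log2 CPM, y axis) by treatment and mouse letter (x axis) for the 150 members (red) and the 8810 other genes (grey); boxes show quartiles and median, whiskers the 5th and 95th percentile of genes. The members' median lies above that of the other genes in the C mice and below it in the B mice under LPS and LPS + Dex, and both spreads are widest for the untreated A mice.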

How the data were processed

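BMDM RNA was polyA-enriched, prepared with a TruSeq mRNA kit and sequenced in pairs on a HiSeq2500. Mapping to mm10 and counting of uniquely mapped exon reads were done by the authors in CLC Bio Genomic Workbench, and scaling in edgeR, from which the deposited log2 CPM values of 9614 genes in 16 libraries came. The submitters' processing notes also name CASAVA 1.8 and FastQC. The 18 deposited columns of the authors' own p-values and FDR were not used.

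The members and gene lists were chosen with earlier results of these data known. Groups and animal numbers came from the sample labels. Whether animals of a genotype were cultured separately is not stated, so p-values measure the spread between these libraries. Low values rise in equal steps. If each step is 1 read, every value below 3 CPM is a whole number of reads within 0.1 (100.0% in each library), which gives the recovered reads. A count of 3 reads is -3.94 to -2.88 log2 CPM, for counting error only.

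Tests used lmFit and eBayes with a trend in limma 3.58.1 under R 4.3.3 on the log2 CPM of the whole table, with Benjamini-Hochberg adjustment over them and no pseudocount or filter, and were tested on simulated data. The LPS and LPS + Dex libraries of an animal shared their deviation from the group means, with r across genes of 0.781 to 0.939, so the animal number was also used as a block. Mouse letters were set here and also used as a block: both B mice have a tag in common in the label of some library, the C mice have S numbers, which differ, and the A mice are those left. No label says that these mark a batch. Genes were named by rule: the 20 lowest scores, 5 on each side of the limit, up to 8 members per list, and up to 5 members per direction of a test. Cdk20 and Gins3, Id1, Arrdc2, D3Ertd254e, Cnr2 and Angptl4 as Dex results, and Rsrp1 and the single-coding-exon genes, were named after their values were seen. No member passed the KO test with or without the block, so Tsc22d3, Bmf, Smad7 and Fbxo5 as KO results were not chosen by the rule for tests. Gene structures are from GENCODE vM21, with 1 transcript per gene. Where RefSeq lists several starts, the first was used. Python 3.11.15 with numpy 2.4.6, pandas 2.3.3 and matplotlib 3.10.9 did the rest.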

Additional observations from a re-analysis of the deposited data

How the results depend on the processing

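Of the 150 members, 142 were kept on log2(CPM + 1), 149 with each library centred on its median gene, 111 when WT mouse A was added, 144 and 103 with an untreated minimum of 1 and 3, 104 with Zfp and Slc symbols allowed, and 119 to 135 when 1 of the 3 pairs was left out. Ranking by the mean of the 3 differences also gave a count inside this range.

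Dex raised 8 members and lowered 2. The counts were the same with a filter at a mean log2 CPM above 1, on log2(CPM + 1) and after centring, and 8 and 3 with voom on recovered reads. They were 19 and 7 with the animal as a replicate block, 15 and 5 with all 12 libraries, 21 and 8 with all 12 and the block, 14 and 6 at an unadjusted p under 0.05, and 3 to 20 and 0 to 8 when 1 mouse was left out. The fits of all 12 libraries hold the LPS libraries that chose the members, so their counts are a description only. For Dex, shares over all genes were counted only for the unblocked and blocked fits given above. With 1 mouse per genotype left, the genotype term is itself the animal block. Alternatives combined with the block, added after seeing the data, gave 14 to 20 raised and 7 or 8 lowered. For KO against WT under LPS + Dex, 0 members passed under the filter, log2(CPM + 1), centring, voom, the block on mouse letters and the single fit of all libraries. At an unadjusted p under 0.05 it was 5 higher and 2 lower, and when 1 library was left out 0 to 2 higher and 0 lower. The share over all genes was not counted for the fits with 1 library left out.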

Other observations

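A few groups were looked at after the values were seen and are given as values only. Of 25 genes for RNA-modifying enzymes (symbols starting Trmt, Mrm, Rpusd, Pus or Nsun), 3 were members: Trmt12, which acts in making wybutosine in tRNA, Mrm1, which methylates mitochondrial ribosomal RNA, and Rpusd4, a pseudouridine synthase. Their scores were -0.98, -0.85 and -0.48, and 12 of the 25 had a score below 0. The members Ftsj2, annotated as Mrm2, and Lcmt2 have other symbols in the deposited data and are not in this count. Of 17 mitochondrial aminoacyl-tRNA synthetases, Pars2 and Mars2 were members, with scores of -1.01 and -0.52, and the median score of the 17 was 0.08. Of 75 mitochondrial ribosomal proteins 1 was a member, Mrpl44. Of 83 genes with symbols starting Rpl or Rps, mostly ribosomal proteins of the cytosol, 0 were.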
